A study of Drosophila melanogaster with 3 samples.

Results

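The genes of the Chiffon acetyltransferase (CHAT) complex are 5 Drosophila melanogaster genes, chif, Gcn5, Ada2b, Ada3 and Sgf29. They were chosen by gene symbol from all 13945 protein-coding genes annotated on the chromosome arms, with or without a region in the lists. The question was whether and where the tagged Chiffon protein was recovered at the genes that encode its own complex. Whole embryos of both sexes pooled, aged 0 to 24 hours, were used for ChIP-seq (immunoprecipitation of chromatin, then sequencing of its DNA). The 3 biological replicates form 1 group, the strain chif-RA-GFP, which stably expresses the chif-RA product with eGFP fused at its C terminus, and the precipitation used an antibody against GFP. Chromatin was sonicated to fragments of 200 to 800 bp. The promoter that drives the transgene and its place in the genome are not given in the labels. No group of another genotype and no untagged list was analysed here. Because the embryos were processed whole, a strong signal in few cells and a weak signal in many cannot be told apart. Since chif itself is carried by the tagged transgene, its locus is described apart from the other 4 members.

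Gcn5 is a histone acetyltransferase that adds acetyl groups to histone H3 and works within multi-subunit complexes. In flies these include SAGA, ATAC and the ADA complex, which share Gcn5 and Ada3 and differ in the Ada2 protein or in other subunits they carry. In the CHAT complex the C-terminal part of Chiffon binds Gcn5 together with Ada2b, Ada3 and Sgf29, while the N-terminal part of Chiffon resembles Dbf4 and activates the replication kinase Cdc7.

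The DNA at the summits of the strongest members is shown first, because the results turn on where these peaks sit. Each sequence is the RefSeq release 6 (dm6) genome, 5′ to 3′ on the strand of the named gene, within 100 bp of the summit. The Gcn5 sequence is chr3L:12524129-12524329, minus strand, and lies upstream of Gcn5 in an intron of the overlapping gene ver. The Ada2b sequence is chr3R:8239967-8240167, minus strand, within an Ada2b intron. The Ada3 sequence is chrX:18085523-18085723, plus strand, upstream of Ada3. The chif intron sequence is chr2L:16351175-16351375, minus strand, the strongest peak of the chif locus. The chif inner start sequence is chr2L:16350284-16350454, minus strand, and stops at the base before the inner start site. Capitals mark matches to the motifs searched, which are CGATA (written TATCG where it lies on the other strand) and TATAAA in the Ada genes and CAGCTG at the chif inner start. The Gcn5 and chif intron sequences hold none of the 9 motifs searched and so have no capitals.
Gcn5: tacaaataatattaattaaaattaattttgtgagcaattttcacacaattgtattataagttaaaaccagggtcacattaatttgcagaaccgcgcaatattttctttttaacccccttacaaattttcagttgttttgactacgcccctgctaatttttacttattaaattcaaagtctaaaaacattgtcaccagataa
Ada2b: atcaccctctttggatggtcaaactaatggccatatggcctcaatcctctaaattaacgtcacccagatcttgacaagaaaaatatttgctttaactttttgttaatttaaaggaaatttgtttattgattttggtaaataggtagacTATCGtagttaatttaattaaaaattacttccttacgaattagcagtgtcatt
Ada3: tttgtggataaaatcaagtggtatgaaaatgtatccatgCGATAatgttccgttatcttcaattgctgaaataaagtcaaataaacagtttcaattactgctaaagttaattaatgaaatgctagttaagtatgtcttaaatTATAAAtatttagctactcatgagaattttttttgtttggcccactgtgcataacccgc
chif intron: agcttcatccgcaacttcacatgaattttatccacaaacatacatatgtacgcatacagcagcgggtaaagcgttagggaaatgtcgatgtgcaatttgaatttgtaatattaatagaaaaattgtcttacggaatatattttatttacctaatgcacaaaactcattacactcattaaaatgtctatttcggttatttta
chif inner start: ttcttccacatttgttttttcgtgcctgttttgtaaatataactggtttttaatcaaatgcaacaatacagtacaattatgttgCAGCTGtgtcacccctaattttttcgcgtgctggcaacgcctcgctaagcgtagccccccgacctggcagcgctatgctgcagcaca

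The lists give, for each region, a summit, a signal value and a −log10 q, all of them the authors' values. The signal value has no stated scale, so it was used only to rank regions within a list, with rank 1 the strongest. The irreproducible discovery rate (IDR) list holds 3684 regions, the list called on the pooled replicates 25066, and the 3 replicate lists 30000 each. All 3684 IDR peaks were the 3684 highest regions of the pooled list, with signal values of 92.4 to 2129. The replicate lists are relaxed lists that include background regions, so a region there is read by its rank, and a region among the highest 3684 of a replicate is called a highest region. Of the IDR peaks, 1984 have the same largest −log10 q, 3.60, so q orders only part of the list. No read counts accompany the lists, and the sequencing depth is unknown.

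Each of the 4 members other than chif had an IDR summit no more than 500 bp from a start site, where 2094 of 13945 protein-coding genes (15.0%) had one. At 3 of them, Gcn5, Ada2b and Ada3, a highest region lay within 500 bp of the start site in every replicate, against 1355 genes (9.72%) overall. Sgf29 had no such region in replicate 1 and only a lower-ranked one in replicate 3. The replicates taken singly had a highest region at 3, 4 and 3 of these 4 genes, in the order replicate 1, 2 and 3, against 14.2%, 15.3% and 14.4% of all genes. The inner start site of chif met both criteria as well. With so few members, chosen with earlier results on these data known, the counts are a description and were not tested.

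Gcn5, Ada2b and Ada3 held peaks of similar rank, at 952, 1000 and 1229 of the 3684 IDR peaks. The median IDR rank was 1114.5 over the 4 members other than chif, against 1580 over the 2094 genes with an IDR summit at a start site (quartiles 722.5 and 2520). Among those 2094 genes, 32.0% had a stronger start-site peak than Gcn5, 33.3% than Ada2b, 40.3% than Ada3 and 89.4% than Sgf29. The order of the peaks was Gcn5, Ada2b, Ada3 and Sgf29, but the replicate ranks of Gcn5, Ada2b and Ada3 overlapped and do not set these 3 apart. Both replicate ranks of Sgf29 lay below every replicate rank of the other 3.

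**Figure D1:**
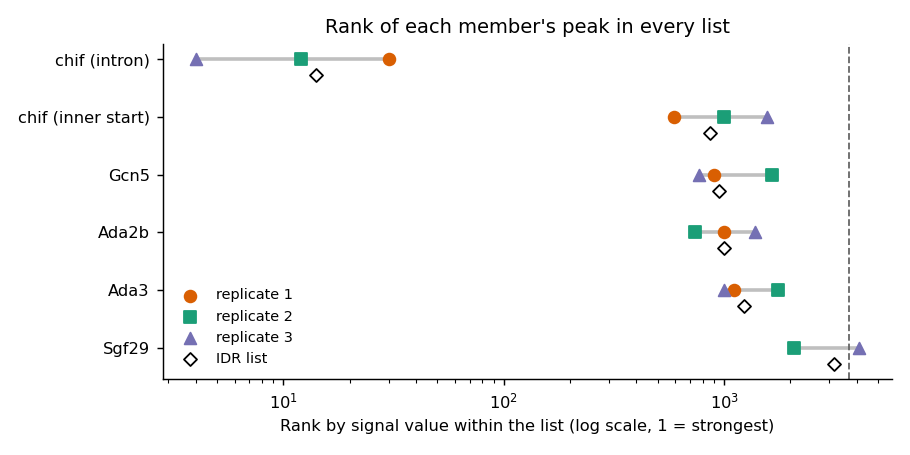
Rank of each peak by signal value within its list (x axis, logarithmic, 1 is the strongest), with filled symbols for the 3 replicates, a grey line over their range and an open diamond for the IDR list; the dashed line is rank 3684. The chif intron peak stands at ranks 4 to 30, the chif inner start, Gcn5, Ada2b and Ada3 overlap between ranks 593 and 1761, and Sgf29 has symbols for replicates 2 and 3 alone.

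Gcn5 (FBgn0020388, chr3L:12521129-12524014, minus strand) encodes the acetyltransferase itself. Its peak, chr3L:12524031-12524426, had a signal value of 208.1, rank 952 in the IDR list, and its summit lay 215 bp upstream of the single Gcn5 start site. In replicates 1, 2 and 3 the region over this peak had signal values of 63.7, 57.9 and 81.0 and ranks 903, 1652 and 771. All of these are highest regions, and the log10 rank was 3.02 ± 0.175 (SD, n = 3). The 3 summits lay 189, 204 and 219 bp upstream of the start site, with an SD of 15.0 bp. That is below the median over start-site peaks and just above their lower quartile. The median summit SD was 26.6 bp (quartiles 14 and 47.4) among the 1428 peaks with a region in every replicate.

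The Gcn5 peak cannot be given to Gcn5 alone. The gene ver, which encodes a telomere-capping protein, runs on the other strand and overlaps the 5′ end of Gcn5. One ver start site lies 198 bp from the summit and another 242 bp away, and the nearer of these is closer to the summit than the Gcn5 start site. Sharing of this kind was common, since 1184 of the 2094 genes with an IDR summit at a start site (56.5%) had a strongest peak within 500 bp of another protein-coding gene's start. Among the 4 members other than chif, the peaks of Gcn5, Ada3 and Sgf29 were shared and that of Ada2b was not.

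Ada2b (FBgn0037555, chr3R:8236632-8240515, minus strand) encodes the adaptor that joins Gcn5 in SAGA and in CHAT. Its peak, chr3R:8239869-8240264, had a signal value of 202.6 and rank 1000. Unlike the start-site peaks of the other members, that of Ada2b had its summit downstream of the start site, 448 bp into the gene and inside the intron that follows the exon at the start site. Only 225 of the 2094 genes with an IDR summit at a start site (10.7%) had their strongest peak downstream. In 28 genes (1.34%) it lay 400 to 500 bp downstream, at the far end of the 500 bp window. Peaks further into a gene fall outside that window and are not in these shares.

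The strongest replicate regions over the Ada2b peak had signal values of 60.3, 87.7 and 60.6 and ranks 1001, 738 and 1379. The log10 rank was 3.00 ± 0.136 (SD, n = 3). Their summits lay 423, 511 and 442 bp downstream of the start site, with an SD of 46.3 bp, so the intronic place recurred in every replicate. In replicate 2 the signal was split between that region and an adjoining one, at 308 bp, with signal 54.6 and rank 1837, which is the region within the 500 bp window there. Narrowing the window to 250 bp drops Ada2b from the genes with an IDR summit at a start site.

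Ada3 (FBgn0030891, chrX:18085761-18088418, plus strand) encodes a structural subunit of the acetyltransferase module. Its peak, chrX:18085425-18085820, had a signal value of 181.8, rank 1229, with the summit 138 bp upstream of the start site. The replicate regions had signal values of 56.9, 56.0 and 70.8 and ranks 1111, 1761 and 997. All were highest regions, and the log10 rank was 3.10 ± 0.131 (SD, n = 3). The summits lay 156, 138 and 168 bp upstream, with an SD of 15.1 bp, close to the spread at Gcn5. The peak also lies within an intron of CG7536, whose gene model spans Ada3 on the other strand and which has start sites 161 and 216 bp from the summit.

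Sgf29 (FBgn0050390, chr2R:21292239-21293646, minus strand) encodes the subunit whose Tudor domains bind methylated histone H3 lysine 4. Its peak, chr2R:21293506-21293901, was the weakest of the members at signal value 101.6 and rank 3165, with a −log10 q of 2.52. The summit lay 58 bp upstream of the outer Sgf29 start site and 64 bp from the start site of RpL29, which encodes a ribosomal protein and is transcribed the other way. Replicate 1 listed no region over this peak. Replicate 2 had a highest region with signal value 51.2 and rank 2078, and replicate 3 had signal value 32.7 and rank 4104, outside its highest 3684. A peak without a region in 1 or more of the replicates was uncommon among start-site IDR peaks, at 64 of 1492 (4.29%). That share is over peaks of every rank, and the share among peaks as weak as that of Sgf29 is not given here.

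**Figure D2:**
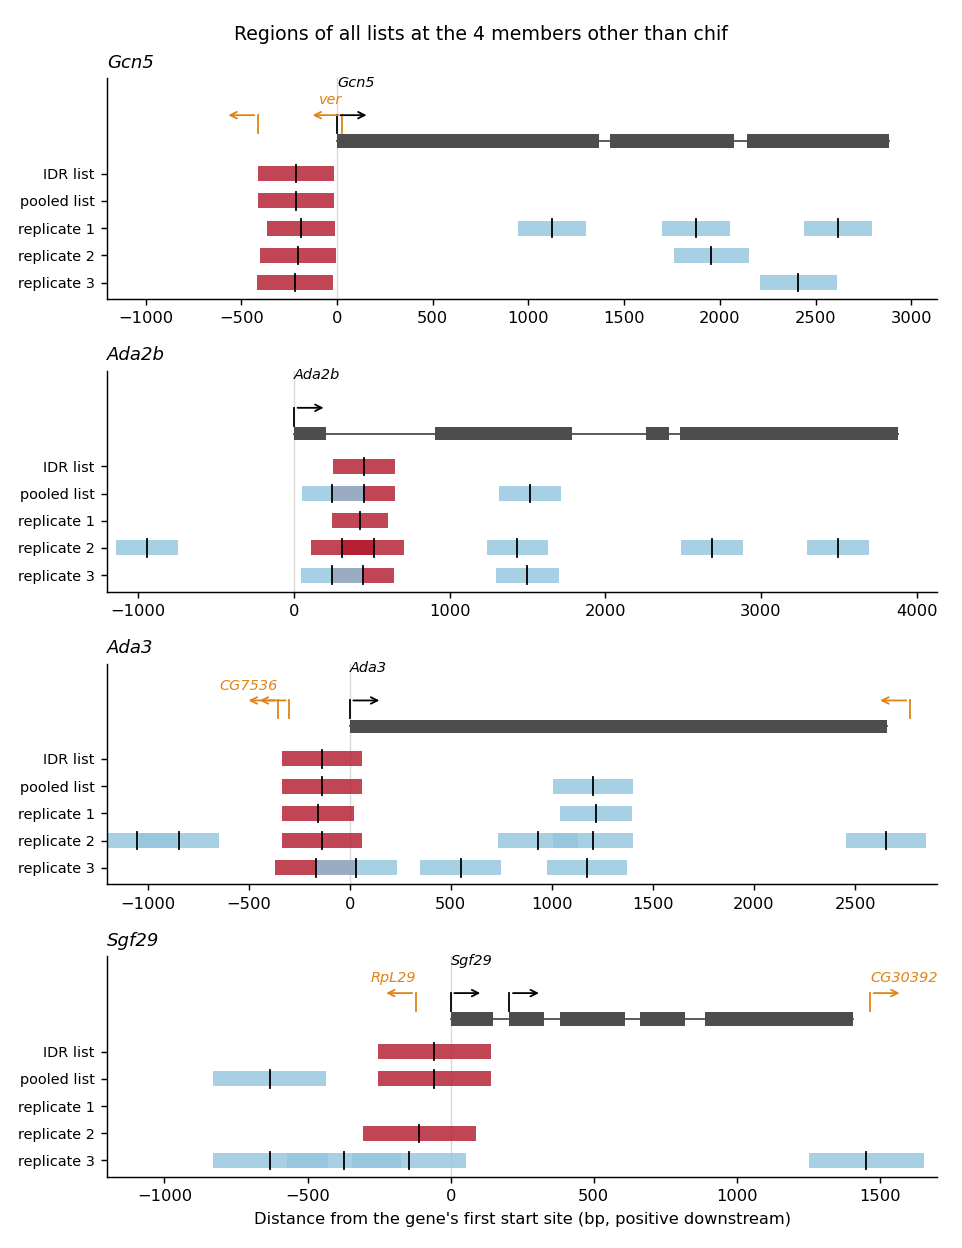
Regions of each list at Gcn5, Ada2b, Ada3 and Sgf29, by distance from the gene's first start site (x axis, bp, positive downstream); bars are regions, black ticks their summits, red bars regions among the highest 3684 of their list and blue bars the rest, with exons in grey and start sites of the gene (black) and its neighbours (orange) as arrows. The red bars stack upstream of Gcn5, Ada3 and Sgf29 and within the Ada2b intron, and replicate 1 has no bar at Sgf29.

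Beyond the start-site peaks, the bodies of these 4 genes held no IDR peak. In the pooled list they and their flanks, up to 1000 bp from a start site, held 8 regions, of which the 4 start-site peaks alone ranked among the highest 3684. The coding exons of Ada2b had a pooled region at rank 12761 (signal 46.3), and those of Ada3 had one at rank 13871 (signal 44.6). The replicate lists added 4, 11 and 6 regions away from start sites, at ranks of 7543 to 26599 in replicate 1, 738 to 25294 in replicate 2 and 7778 to 29389 in replicate 3. The region at rank 738 is the intronic Ada2b region described above. Gcn5 had coding-exon regions at ranks 7543, 25501 and 26599 in replicate 1, 19700 in replicate 2 and 28195 in replicate 3. At Sgf29 no summit of any list fell in its exons or introns.

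The genes most like each member in rank over the 3 replicates were found among 2003 genes with an IDR summit at a start site and a region in every replicate. For Gcn5 these were CG31751, at ranks 861, 1604 and 863, and egl, at 1125, 1675 and 774. Their mean absolute differences in log10 rank were 0.0275 and 0.0344. For Ada2b they were puml and TTLL12, which share 1 peak at ranks 1043, 2074 and 1453 and differed by 0.0311. The Ada2b ranks compared were 1001, 1837 and 1379, those of regions within 500 bp of its start site. The stronger replicate 2 region over the Ada2b peak, at rank 738, lies outside that window and was not used. For Ada3 they were CG7006, at ranks 971, 1888 and 1047 (difference 0.0367), and Ccz1, at 1096, 1499 and 880 (difference 0.0434). For the chif inner start they were RpS5a, at ranks 554, 963 and 1788 (difference 0.0349), and shep, at 523, 1078 and 1653 (difference 0.0367). Sgf29 was left out because it had no region in replicate 1. Similarity was measured over 3 replicates alone and describes rank only.

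Gcn5, Ada3 and Sgf29 are on both the SAGA and the ATAC list and Ada2b is on the SAGA list alone, and the remaining genes of those lists were set beside them. Of 27 other SAGA and ATAC genes, 2 (7.41%) had an IDR summit at a start site, below the 15.0% of all genes. With the 4 members counted in, the figure is 6 of 31 genes (19.4%), and the difference between members and remaining genes was not tested because the members were chosen with these values known. The 2 genes were Atxn7 and e(y)2, both of SAGA. None of the 10 other ATAC genes had an IDR summit, and 2 of the 17 other SAGA genes (11.8%) did.

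Atxn7, which encodes the subunit that anchors the deubiquitinating module to SAGA, had a peak of signal value 147.9 and rank 1763 with its summit 9 bp upstream of the start site. Its replicate ranks were 1544, 3042 and 1586. e(y)2, which encodes another subunit of that module, had a peak of signal value 105.5 and rank 2982, 174 bp upstream, with replicate ranks 3305, 3107 and 3031, and shares the peak with CG11695. Both had a highest region in every replicate. The remaining subunits of the same module had only lower-ranked pooled regions, rank 5809 at not, which encodes the ubiquitin protease, and rank 10642 at Sgf11.

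In the pooled list all 4 members had a region at a start site. This follows from their IDR summits, because every IDR peak is also a pooled region. Of the 27 other genes, 13 had a pooled region at a start site, 11 of them without an IDR summit, and 14 had none. Among all genes, 6283 (45.1%) had one. Ada2a, the relative of Ada2b that takes its place in ATAC, had a pooled region at rank 10655 (signal 50.2). That region is shared with Polr2D, Tgs1 and moi and cannot be given to Ada2a alone. Ada2a had no start-site region in replicate 1 and had ranks 16731 and 5114 in replicates 2 and 3. Against ranks of 1001, 1837 and 1379 within 500 bp of the Ada2b start site, the Ada2a ranks lay outside the Ada2b range in both replicates that listed it. Of the 17 other SAGA genes, 10 had a pooled region at a start site and 7 had none. Of the 10 other ATAC genes, 3 had one. The SAGA genes without one included the scaffold gene Nipped-A and the genes Spt3 and Spt20, which encode core SAGA subunits. Those with one included Saf6 and Spt7, at ranks 6396 and 7362. Taf10b had a highest region in replicate 3 alone, at rank 2602. Cdc7, which encodes the kinase that the N-terminal part of Chiffon activates, had an IDR peak of signal value 142.8 and rank 1885, 25 bp downstream of a start site and shared with CG3226. Its replicate ranks were 1263, 1581 and 4257, so replicate 3 fell outside the highest 3684.

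**Figure D3:**
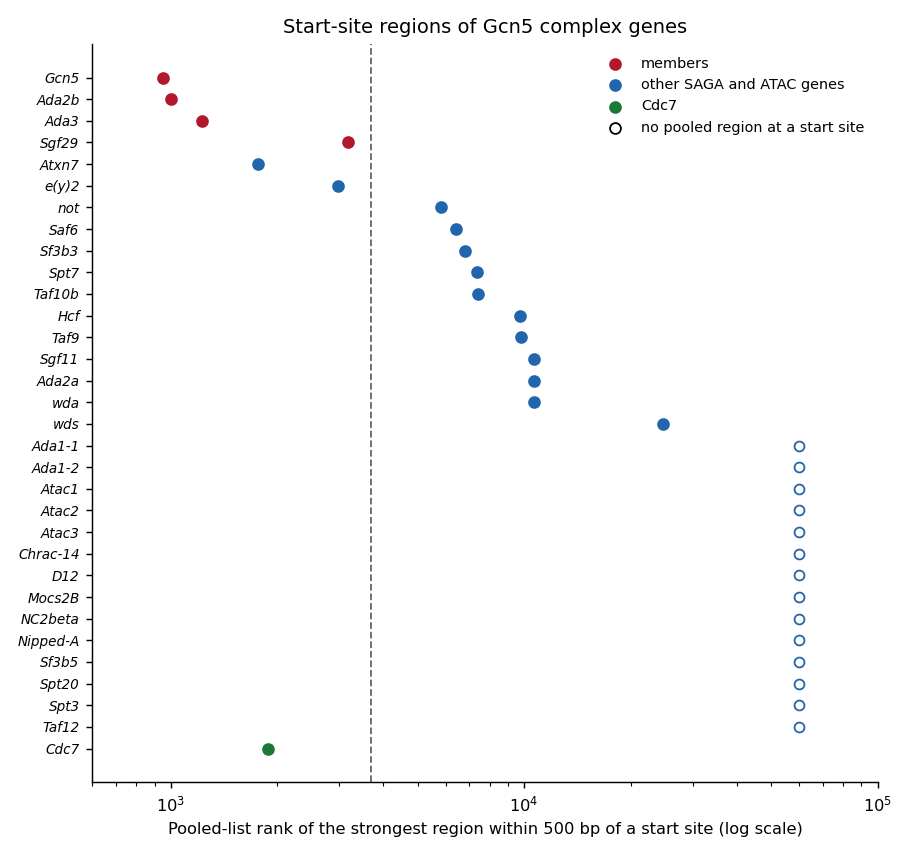
Rank in the pooled list of the strongest region within 500 bp of a start site (x axis, logarithmic) for the members (red), the 27 other SAGA and ATAC genes (blue) and Cdc7 (green); open circles at the right have no pooled region there and carry no rank, and the dashed line is rank 3684. The 4 members, Atxn7, e(y)2 and Cdc7 lie left of the line, 11 other genes lie right of it, and 14 are open.

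The DNA under the Gcn5, Ada2b and Ada3 summits was low in GC. Within 100 bp of the summit the GC content was 27.9% at Gcn5, 30.3% at Ada2b and 29.9% at Ada3, against a median of 36.3% over all IDR peaks (quartiles 32.3 and 40.8) and 45.3% over pooled regions that are not IDR peaks. Of all IDR peaks, 4.72% had a lower GC content than Gcn5, 13.1% than Ada2b and 11.0% than Ada3. Sgf29, at 44.3%, was higher than 87.1% of IDR peaks. GC content can move the recovery of fragments in sequencing, and its part in these ranks was not tested.

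**Figure D4:**
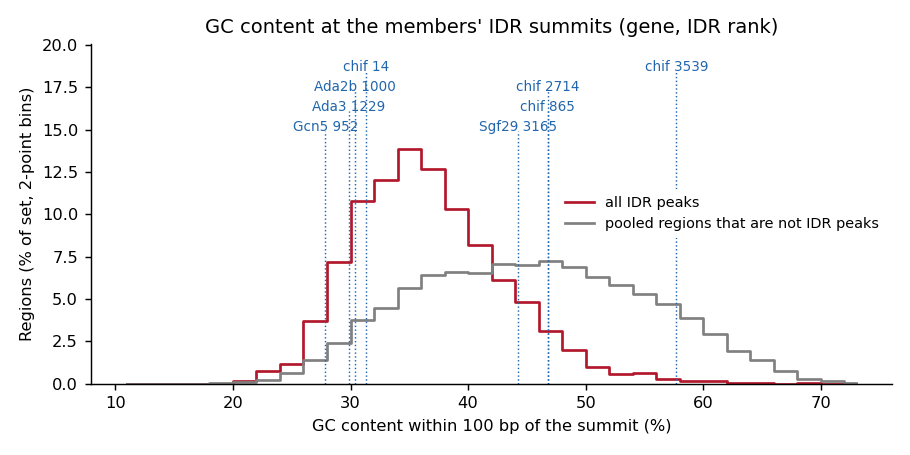
Distribution of GC content within 100 bp of the summit (x axis, %) for all IDR peaks (red) and for pooled regions that are not IDR peaks (grey), as a share of each set in bins of 2 percentage points (y axis, %); dotted lines mark the members' IDR peaks, labelled with gene and IDR rank. Gcn5, Ada3, Ada2b and the chif intron peak fall at 27.9% to 31.3%, left of the IDR median of 36.3%, and Sgf29 and the other chif peaks fall at 44.3% to 57.7%.

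No motif searched was common to the members. The motifs were read on both strands as exact letters. The promoter elements were the DRE, with the letters TATCGATA, the shorter stretch CGATA that lies within it, the TATA box, with the letters TATAAA, and the core of Motif 1, with the letters GGTCACAC. The factor motifs were GAGAG for the GAGA factor, the E-box written CACGTG, a second E-box written CAGCTG, the Zelda motif with the letters CAGGTAG, and an E2F motif with the letters TTTNGCGC. The full DRE, which is bound by DREF, was in none of the members' summit windows and in 7.13% of the IDR summits at start sites. CGATA was found 48 bp downstream of the Ada2b summit, 61 bp upstream of the Ada3 summit and at the Sgf29 summit, and 37.5% of IDR summits at start sites had it. The Ada3 window also held TATAAA, found in 30.7% of such summits. The Sgf29 window held GAGAG and CACGTG, found in 21.1% and 3.05%. CAGCTG was in 2 places at the chif inner start, 16 bp upstream and 69 bp downstream of the summit. The second runs past the end of the printed sequence. CAGCTG was also in 1 place at the chif-locus IDR peak of rank 3539, 80 bp from its summit. Of the IDR summits at start sites, 12.6% had it. Motif 1, Zelda and E2F letters, held by 4.2%, 0.488% and 4.14% of those summits, were in no member window. A match to these letters is a description of the sequence and not evidence of binding.

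The chif locus held the strongest peak of any member. chif (FBgn0000307, chr2L:16342430-16352628, minus strand) has an outer start site at 16352628, used by chif-RA, chif-RB and chif-RE, and an inner one at 16350283, used by chif-RD. Its gene body and flanks held 4 IDR peaks, 6 pooled regions and 9, 7 and 7 regions in replicates 1, 2 and 3. The gene Hyls1 shares the outer start site and spans the locus, so the intronic regions lie in introns of both genes. Signal from the genomic locus and signal from the transgene copy cannot be told apart in these lists.

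The strongest of them, chr2L:16351059-16351405, lay in the intron between both start sites, with its summit 992 bp upstream of the inner one. Its signal value was 1282, which is rank 14 in the IDR list. In replicates 1, 2 and 3 it had signal values of 296.1, 477.4 and 506.1 and ranks 30, 12 and 4. Its summit moved by an SD of 10.6 bp, less than the lower quartile of 14 bp over start-site peaks. It is not within 500 bp of any start site and is therefore not among the start-site peaks counted above. An adjoining IDR peak, chr2L:16351277-16351672, had signal value 113.1 and rank 2714, and its own replicate regions ranked 4297, 3436 and 15745.

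At the inner start site, the peak chr2L:16350156-16350551 had signal value 219.9 and rank 865, 71 bp upstream of the chif-RD start. The replicate signal values were 80.4, 74.7 and 56.5 and the ranks 593, 1002 and 1565, a range that overlaps those of Gcn5, Ada2b and Ada3. Its summit SD was 33.2 bp. No other protein-coding start site lies within 500 bp of this peak.

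The outer start site, that of the tagged isoform chif-RA, had no IDR summit in its 500 bp window. A pooled region there had signal value 62.5 and rank 6860, with its summit 73 bp upstream, and the replicate ranks were 8601, 10722 and 5241. None of these is among the highest 3684. The remaining IDR peak, chr2L:16353104-16353499, lies in a coding exon of CG4455, 368 bp from the CG4455 start site, with signal value 94.9 and rank 3539, and its replicate ranks were 7330, 2498 and 4998.

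The coding exons of chif, which the transgene also carries, had no IDR peak and no pooled region. The replicates had regions there at ranks 6880, 10608 and 19312 in replicate 1, 3618 in replicate 2 and 18961 in replicate 3. The region of replicate 2 was the only one of these among the highest 3684 of its list, and it overlaps the replicate 1 region of rank 10608. Outside the coding exons, GC content was 31.3% at the strongest intronic summit, 46.8% at the adjoining summit and 46.8% at the inner start, and it was 57.7% at the summit in CG4455.

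**Figure D5:**
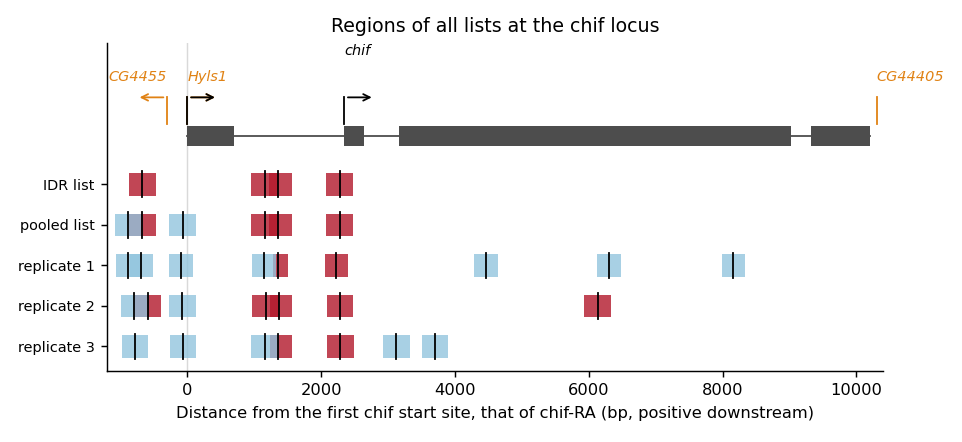
Regions of each list at the chif locus, by distance from the chif-RA start site (x axis, bp, positive downstream); bars are regions, black ticks their summits, red bars regions among the highest 3684 of their list and blue bars the rest, with chif exons in grey and start sites of chif (black), Hyls1, which shares the outer one, and other genes (orange). Red bars recur in every list in the intron and at the inner start site, and the bars at the outer start site are all blue.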

How the data were processed

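Each replicate was deposited with a relaxed list of peaks and background; a pooled list (with a control alignment) and an IDR list built on all 4 complete the set, per the file headers. The threshold of the IDR step, like the aligner and the caller, is not given in the sources used here. Signal values are a score set by the authors on no stated scale. The −log10 q and the summit offset in bp are likewise the authors' deposited values. The dm3 lists were not used here.

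Scripts in Python 3.11.15 (pandas 2.3.3, numpy 2.4.6, matplotlib 3.10.9) ranked regions by signal value within each list and joined summits to start sites of protein-coding genes in Ensembl release 115 (BDGP 6.54). A gene counted as occupied with a summit at most 500 bp from any of its start sites, and lists were matched on at least 1 bp of overlap. Coordinates are dm6, 1-based, and sequence windows are 201 bp. The counting was checked on simulated data. The SAGA, ATAC and Dbf4-dependent kinase lists hold 36 entries, of which 1, e(y)1, was matched through a RefSeq synonym to Taf9. Genes named are the 5 members, genes sharing a member's start-site peak, list genes with an IDR summit at a start site, Cdc7, and the 2 genes nearest each member in replicate ranks. Other list genes, genes sharing a peak with a list gene, CG4455, Hyls1 and the genes around chif were named after their values were seen. The members and lists were chosen with earlier results of these data known, and no p-value is given. Alternatives were windows of 250 and 1000 bp, the 1842 strongest IDR peaks, the highest 1842 or 10000 regions per replicate, ranking by −log10 q, nearest start site alone, other gene classes and leaving out each replicate. Comparing the replicate region over the IDR peak was added after seeing the data.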

Additional observations from a re-analysis of the deposited data

How the results depend on the processing

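The count of members other than chif with an IDR summit at a start site was 4 and fell to 3 with a 250 bp window (without Ada2b), among the 1842 strongest IDR peaks (without Sgf29) and with the nearest start site alone (without Gcn5, whose peak is nearer to ver). The count of those with a highest region in every replicate was 3, was 2 with a 250 bp window, and was 3 to 3 leaving out each replicate. The median IDR rank of 1114.5 became 1229 at 250 bp, and the count of shared peaks was 3 under each alternative tried. Other SAGA and ATAC genes with an IDR summit numbered 2, but 1 among the 1842 strongest and 1 with the nearest start site alone, both without e(y)2. By the other measure, a highest region in every replicate, they numbered 2 with all replicates kept and 2 to 2 leaving out each replicate. IDR regions of the chif locus numbered 4, and 2 of them among the 1842 strongest. Counted by any base of the region, not by the summit, 2 lay within 500 bp of its start sites, the peak at the inner start and the edge of the peak in CG4455. Those that overlap a highest region in every replicate numbered 3 with all replicates kept and 3 to 3 leaving out each replicate. The 3 include the adjoining intronic peak of rank 2714, whose edge overlaps the regions of the strongest peak. Its own regions ranked 4297, 3436 and 15745, outside the highest 3684 in replicates 1 and 3. The IDR list itself was not rebuilt without a replicate. The share of genes with an IDR summit at a start site was 11.9% at 250 bp and 17.6% at 1000 bp, against 15.0% at 500 bp. No paired analysis was possible because the design has 1 group. Depth is unknown, no control list was analysed, and a peak near start sites of several genes was counted for each.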
